A study of Mus musculus with 14 samples.

Results

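The matrix proteases and their inhibitors described here are the matrix metalloproteinases (MMPs), the ADAM and ADAMTS proteases and the tissue inhibitors of metalloproteinases (TIMPs). They were chosen by name alone: every non-control probe of the array design whose gene name is Mmp, Adam, Adamts or Timp followed by its number, with Adam10 and Adam17 left out. That rule gave 105 of 55681 probes, which stand for 76 of the 36406 gene names on the array: 23 MMPs, 4 TIMPs, 19 ADAMTS genes and 30 ADAMs. Of these, 94 probes and 69 genes passed the filter on dim probes and were tested among 32870 genes. The 7 genes that did not pass were Mmp9, Mmp10, Mmp13, Mmp16, Mmp20, Adamts19 and Adam29.

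MMPs, ADAMs and ADAMTS proteases are zinc-dependent endopeptidases. MMPs cleave collagens, laminins and other matrix proteins, ADAMTS proteases are secreted and cleave proteoglycans and procollagens, and ADAMs sit in the cell membrane, where the active ones shed the outer part of other membrane proteins. TIMPs are secreted proteins that block the active site of these enzymes. Satellite cells are the stem cells of muscle and lie between the fibre and its basement membrane, and matrix proteases are known to take part in their activation and migration.

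The study measured RNA from satellite cells sorted from the skeletal muscle of mice, where the sort kept cells with integrin alpha 7 and CD34 on their surface and discarded those with Sca1, CD11b, CD45 or CD31. Its question was how gene expression in these cells changes in normal ageing and in a strain with accelerated senescence. The 14 single-colour arrays hold 3 Young (2, 2 and 3 months), 3 Old (22, 23 and 24 months) and 2 Geriatric (30 and 29 months) C57BL/6 samples, and 3 samples each of the senescence-prone strain SAMP8 and of its senescence-resistant counterpart SAMR1, all at 12 months. No group carries a transgene or a treatment, per the labels, and all mice are labelled male. The labels call the samples biological replicates and do not say how many mice each holds. SAMP8 and SAMR1 differ from the C57BL/6 groups in strain and in age together, so these cannot be told apart when levels are set beside each other. Levels are log2 values relative to the 75th percentile of each array, so that 0 is the level of that percentile, and are set side by side only within a probe. A probe counts as detected on an array where the scanner software marked it as well above background, and a gene where any of its probes is detected.

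Between 77.1% (SAMP8 2) and 88.8% (Old 1) of all probes were detected on each array. The 9 satellite cell markers (Pax7, Myf5, Cd34, Itga7, Vcam1, Cdh15, Sdc4, Calcr and Chodl) were detected on every array, with array means between 2.10 and 2.86. One feature of the arrays goes against their labels. The Y-linked genes Ddx3y, Uty and Kdm5d were detected on none of the 6 Young and Old arrays and on all 8 Geriatric, SAMP8 and SAMR1 arrays, and Xist had a level of 5.69 ± 0.15 on Young and 5.26 ± 0.26 on Old arrays (SD, n = 3 each) and was detected on neither Geriatric array. Sex-linked transcripts and age therefore cannot be told apart in any comparison of Geriatric with Young or Old cells, which cannot be made without these arrays. Old versus Young and SAMP8 versus SAMR1 set arrays of the same kind against each other, although Xist was weakly detected on 3 of 3 SAMP8 and 1 of 3 SAMR1 arrays. The arrays lie on 2 slides, and both Geriatric arrays lie on slide 2. Geriatric 1 stood apart with 969 outlier spots and 780 probes without a value, against 94 to 255 spots and 0 to 12 probes on the other arrays; among the 69 genes this left Adamts17 without a value there. Without Geriatric 1, 13 of the 69 genes passed in Geriatric against Old cells and 4 in Geriatric against Young cells.

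Most of the genes that passed did so between Old and Geriatric cells, where most of the calls over all genes lay too. In Old against Young cells 1 of the 69 genes was higher at an adjusted p under 0.05 in limma (1.19% of all genes were) and none was lower (0.24% of all genes), while 10 of the 69 had an unadjusted p under 0.05. In Geriatric against Young cells 2 were higher and 1 lower, where 1.58% and 2.61% of all genes were. In Geriatric against Old cells 4 were higher and 10 lower, where 5.52% and 14.4% of all genes were. In SAMP8 against SAMR1 cells none was higher (0.225% of all genes) and 1 lower (0.228%), with 4 at an unadjusted p under 0.05. Taking both directions together, 1.45%, 4.35%, 20.3% and 1.45% of the 69 genes passed in these 4 comparisons, beside 1.43%, 4.19%, 19.9% and 0.453% of all genes, so in the 3 age comparisons the genes changed about as often as all genes did. The split of calls over all genes depended on the scaling: higher calls made up 83.2% in Old against Young cells and 67.8% under quantile normalization, 27.7% in Geriatric against Old cells and 46.9% under quantile normalization or 43.4% with the authors' deposited values, and 37.7% in Geriatric against Young cells and 50.6% with the authors' deposited values. Quantile normalization moved the median change of all genes by -0.105, 0.137 and 0.251 in Old against Young, Geriatric against Young and Geriatric against Old cells. None of the 37 changes of these genes that were followed through the alternatives reversed under it. Those 37 were chosen for a small p in the main limma fit, so a reversal was unlikely from the start. For the 69 genes the Geriatric against Old calls were 7 higher and 9 lower under quantile normalization and 6 higher and 8 lower with the authors' deposited values.

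The share of these genes whose arrays did not overlap between groups lay near or below that of all genes. In Old against Young cells 8 of the 69 genes were higher on every array (12.9% of all genes were) and 1 lower (8.56%). In Geriatric against Young cells 9 were higher (15.1% of all genes) and 20 lower (29.1%). In Geriatric against Old cells 9 were higher (19.5%) and 22 lower (35.4%). In SAMP8 against SAMR1 cells 3 were higher (7.75%) and 5 lower (5.37%). Their median log2 change was 0.046 in Old against Young cells, -0.213 in Geriatric against Young, -0.398 in Geriatric against Old and -0.078 in SAMP8 against SAMR1. Over all genes tested the medians were 0.061, -0.179, -0.224 and 0.008 in the same order. These small medians depended on the scaling. In Old against Young cells the median of the 69 genes was -0.104 under quantile normalization and -0.074 with the authors' deposited values, in SAMP8 against SAMR1 cells it was 0.085 after normexp background correction, and in Geriatric against Old cells it was -0.036 under quantile normalization.

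**Figure D1:**
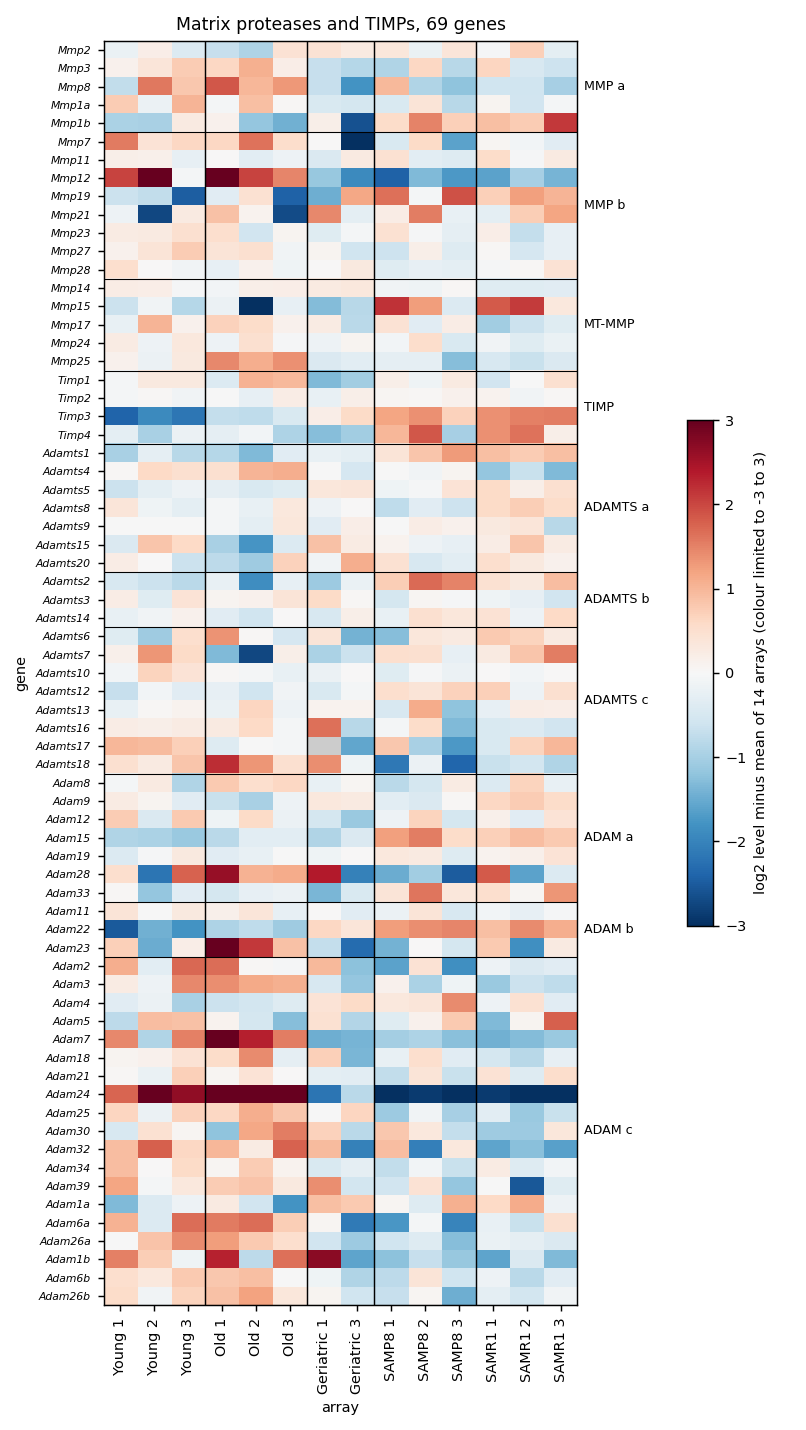
Levels of the 69 tested genes on the 14 arrays, as log2 level minus the mean of the gene's 14 arrays (colour limited to -3 to 3, grey for a missing spot); MMP a are the collagenases, gelatinases and stromelysins, MMP b the other secreted MMPs, MT-MMP the membrane-type MMPs, ADAMTS a the proteoglycanases, ADAMTS b the procollagen N-proteinases, ADAMTS c the other ADAMTS, ADAM a the somatic ADAMs with an active protease domain, ADAM b the brain ADAMs without protease activity and ADAM c the testis and other ADAMs. Timp3 and Adam22 are low on Young arrays and high on SAMP8 and SAMR1 arrays, and Adam24 is high on Young and Old arrays alone.

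Timp3, the TIMP that stays bound to the matrix and also inhibits several ADAMs and ADAMTS proteases, was the member with changes in all 3 age comparisons. Its single probe lies at chr10:85811696-85811755 on the plus strand of mouse build mm9, and the first 30 of its 60 bases are shown, as the stretch that identifies the transcript measured.
Timp3 probe: atagtgacttttggggatagatctgtctgg
Its level was -0.73, -0.25 and -0.49 on the Young arrays, 0.95, 0.90 and 1.21 on the Old arrays and 1.87 and 2.24 on the Geriatric arrays. The 3 ages form 3 steps that do not overlap, each higher than the age before. It was 2.86, 3.05 and 2.37 on the SAMP8 arrays and 3.05, 3.19 and 3.20 on the SAMR1 arrays, so that all 6 lay above every C57BL/6 array. The highest SAMP8 array (3.046) lay just below the lowest SAMR1 array (3.051).

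Timp3 was 2.85-fold higher in Old than in Young cells (log2 change 1.51 ± 0.22 SE, limma adjusted p = 0.0105). It was 5.83-fold higher in Geriatric than in Young cells (2.54 ± 0.24, adjusted p = 0.000321) and 2.05-fold higher in Geriatric than in Old cells (1.03 ± 0.24, adjusted p = 0.0141). In SAMP8 against SAMR1 cells the change was -0.39 ± 0.22 and did not pass the test. With slide as a block the Old versus Young change was 1.5, and within slides 1 and 2 it was 1.52 and 1.32. On slide 2 alone Timp3 was 2.3 higher in Geriatric than in Young cells and 0.98 higher than in Old cells on the log2 scale, of the same size as over all arrays. Old versus Young missed the threshold when fitted on those 2 groups alone (adjusted p = 0.0845), and Geriatric versus Old did so without Geriatric 3 (0.85, adjusted p = 0.133). These are bulk measurements, in which a change in the RNA per cell and a change in the share of another cell type cannot be told apart, and 3 marker lists are high on the SAMP8 and SAMR1 arrays, where Timp3 is highest. The mean of the 8 endothelial markers was -2.19 to -1.04 on Young, -1.65 to -0.51 on Old, -2.36 to -0.41 on Geriatric, -0.50 to 2.03 on SAMP8 and 1.23 to 2.45 on SAMR1 arrays, and none of the 8 was undetected in any group. The mean of the 7 pericyte and smooth muscle markers was -1.66 to -1.30 on Young, -1.57 to -0.99 on Old and -2.20 to -1.08 on Geriatric arrays, with -0.45 to 0.26 on SAMP8 and 0.10 to 0.39 on SAMR1 arrays, and none was undetected in any group. The mean of the 8 mesenchymal and fibroblast markers was -1.41 to -0.63 on the C57BL/6 arrays, -0.05 to 0.40 on SAMP8 and -0.09 to 0.23 on SAMR1 arrays, with 2 undetected on Young and 1 each on Old, Geriatric and SAMP8 arrays. Between the C57BL/6 ages none of the 8 endothelial markers passed the test. Of the 8 mesenchymal and fibroblast markers none passed in Old against Young cells. 1 was lower in Geriatric than in Young and 1 lower in Geriatric than in Old cells, where 2.61% and 14.4% of all genes were. None of the 8 was called higher, while 5 of them had a positive change in each Geriatric comparison. Of the pericyte markers Pdgfrb was higher in Old than in Young (2.45, adjusted p = 0.00624) and in Geriatric than in Young cells (2.66, adjusted p = 0.00224), and Abcc9 was lower in both (-2.70 and -2.94, adjusted p = 0.0124 and 0.00496). The part of these cells in the Timp3 levels was not tested.

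The other 3 inhibitors did not step with age. Timp2, which helps Mmp14 to activate Mmp2 and inhibits MMPs, was flat: its levels were 5.35 to 5.81 over all 14 arrays and no group mean lay outside 5.56 to 5.67. Timp1, an inhibitor of most secreted MMPs whose gene lies on the X chromosome (probe at chrX:20451802-20451861, mm9), had levels of -2.13, -1.78 and -1.78 on Young, -2.48, -1.05 and -1.09 on Old and -3.40 and -3.12 on Geriatric arrays. Both Geriatric arrays lay below every other array, and those of SAMP8 (-2.21 to -1.81) and SAMR1 (-2.64 to -1.59) overlapped with Young and Old. Timp1 was lower in Geriatric than in Old cells (-1.72 ± 0.42, adjusted p = 0.0163), and its change against Young cells was -1.36 ± 0.42 (adjusted p = 0.0972). The call against Old cells was lost without Old 2 (adjusted p = 0.0543), Geriatric 1 (0.0891) or Geriatric 3 (0.0755) and under quantile normalization (0.0692), and the change was -1.71 with slide as a block, -1.48 on slide 2 and -1.09 with the authors' deposited values. Without Old 1 the change against Young cells passed (adjusted p = 0.0295). Timp4, the inhibitor best known from heart, did not pass in any comparison, with levels of 0.44 to 1.65 over the 8 C57BL/6 arrays, 0.72 to 3.58 on SAMP8 and 1.90 to 3.35 on SAMR1 arrays.

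**Figure D2:**
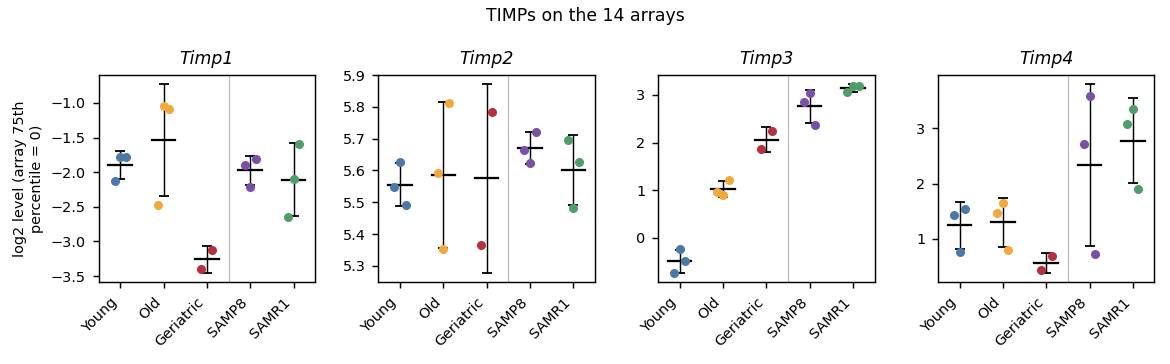
Levels of the 4 TIMPs on each array (points; log2 relative to the array's 75th percentile), with the mean and SD of each group as bars; each panel has its own axis. Timp3 rises in steps over Young, Old and Geriatric arrays, Timp1 is lowest on the 2 Geriatric arrays, and Timp2 stays between 5.35 and 5.81.

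Among the secreted collagenases, gelatinases and stromelysins, 5 of 8 genes passed the filter, and Mmp9, the second gelatinase, was detected on 0 of 14 arrays. Mmp2, the gelatinase that cleaves basement membrane collagen, was detected on all arrays, with means of 2.32 ± 0.31 in Young, 2.07 ± 0.72 in Old and 2.81 ± 0.12 in Geriatric cells, and 2.63 ± 0.32 in SAMP8 and 2.59 ± 0.53 in SAMR1 cells (SD). None of its 4 changes passed the test. Mmp10 and Mmp13, a stromelysin and a collagenase, were detected on 1 and 2 of 14 arrays. Mmp8, the neutrophil collagenase, was the member of this class that changed. Its levels were -5.15, -2.83 and -3.59 on Young arrays, -2.52, -3.40 and -3.08 on Old arrays and -5.09 and -6.18 on Geriatric arrays, of which 1 was detected. It was lower in Geriatric than in Old cells (-2.63 ± 0.71, adjusted p = 0.0257, -2.90 with slide as a block, -2.83 on slide 2). This call was lost without Old 1 (adjusted p = 0.0776) or Geriatric 3 (0.194) and with the authors' deposited values (-0.94, adjusted p = 0.0597), and the change was -2.04 under quantile normalization and -1.41 after normexp background correction.

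Of the other secreted MMPs, 8 of 9 were tested, Mmp20 being the one that did not pass the filter. Mmp12, the macrophage elastase, was detected on 2 of 3 Young and 3 of 3 Old arrays and on none of the 8 Geriatric, SAMP8 and SAMR1 arrays. Its levels were -3.32, -2.30 and -5.42 on Young, -1.34, -3.33 and -3.88 on Old and -6.48 and -7.27 on Geriatric arrays, with -7.77 to -6.69 on SAMP8 and -6.95 to -6.35 on SAMR1 arrays. Geriatric cells were not well above background, so the size of the fall is uncertain. Mmp12 was 16.3-fold lower in Geriatric than in Old cells (fitted log2 change -4.02, adjusted p = 0.00897). Where a group is undetected, a bound can be given. It sets the brighter group's mean against the lowest signal of any detected probe on the dimmer group's arrays, or the probe's own signal where that is higher. Undetected probes can lie above that lowest signal, so the bound is not strict. For Mmp12 the probe's own signal was higher, so the bound equals the fitted change and is no lower limit. Against Young cells Mmp12 was 9.15-fold lower with an adjusted p of 0.0634, which was 0.0214 without Young 3 and 0.0378 without Old 1. The call against Old cells was lost without Geriatric 3 (-3.63, adjusted p = 0.0842) and with the authors' deposited values (-1.30, adjusted p = 0.0563). The fitted change was -4.24 with slide as a block, -4.26 on slide 2 and -1.76 after normexp background correction. These sizes thus hold on the scale of the processed signal only. Mmp11, stromelysin-3, was detected on all arrays with group means between 0.92 and 1.33 and passed in no comparison. Mmp19 was detected on 0 of 3 Young, 1 of 3 Old, 1 of 2 Geriatric, 2 of 3 SAMP8 and 3 of 3 SAMR1 arrays, and Mmp23 had group means between -1.51 and -0.91.

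The membrane-type MMPs were tested for 5 of 6 genes, Mmp16 having been detected on 1 array. Mmp14, the membrane-type MMP that activates Mmp2, lay between 0.50 and 0.89 on all 8 C57BL/6 arrays, with means of 0.70 ± 0.14 in Young, 0.68 ± 0.15 in Old and 0.87 ± 0.02 in Geriatric cells, and at 0.50 ± 0.09 in SAMP8 and 0.23 ± 0.02 in SAMR1 cells. None of its changes passed the test. Mmp25, a membrane-type MMP anchored by a lipid and known from leukocytes, was the one that changed. Its levels were -3.39, -3.70 and -3.23 on Young, -2.08, -2.44 and -2.17 on Old and -3.95 and -3.85 on Geriatric arrays, so that the Old arrays stood above all the others; SAMP8 (-4.80 to -3.80) and SAMR1 (-4.20 to -3.97) arrays lay near the Geriatric ones. It was 0.31 of the Old level in Geriatric cells (log2 change -1.67 ± 0.30, adjusted p = 0.00356, -1.60 with slide as a block, -1.77 on slide 2), a call kept whichever array was left out. With the authors' deposited values the change was -0.76. Its Old versus Young change was 1.21 ± 0.26 with an adjusted p of 0.0507, which was 0.0155 without SAMP8 3 and 0.041 with slide as a block, and it was 0.87 on slide 1 and 1.58 on slide 2. Mmp15 overlapped between ages at -6.53 to -3.57 and lay at -3.87 to -1.31 on SAMP8 and -3.14 to -1.38 on SAMR1 arrays.

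Mmp8, Mmp12 and Mmp25 are known as leukocyte enzymes, and 2 of 9 leukocyte markers were lower in Geriatric than in Old cells, where 14.4% of all genes were. The mean of the 9 tested leukocyte markers was -1.29 to -0.69 on Young, -1.46 to -0.23 on Old and -1.99 to -1.84 on Geriatric arrays, with -1.80 to -1.47 on SAMP8 and -2.00 to -1.69 on SAMR1 arrays. The 2 were Cd14 (-1.44, adjusted p = 0.0027) and Lyz2 (-1.70, adjusted p = 0.0251), and the median change of the 9 was -0.735 (-0.479 under quantile normalization, where 1 passed). In Geriatric against Young cells none of the 9 passed, and none of the 6 tested neutrophil markers passed in either comparison. The 6 had array means of -5.69 to -3.71 on Young, -5.19 to -4.24 on Old and -6.16 to -5.25 on Geriatric arrays. 1 of the leukocyte markers and 3 of the neutrophil markers were undetected on both Geriatric arrays. The part of leukocyte RNA in the 3 MMP changes was not tested.

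The ADAMTS proteoglycanases cleave aggrecan, versican and related proteoglycans, and all 7 were tested. Adamts4 and Adamts5 are known as the aggrecanases. Adamts4 had levels of 3.31, 3.88 and 3.74 on Young, 3.76, 4.28 and 4.35 on Old and 3.26 and 2.76 on Geriatric arrays, and it was lower in Geriatric than in Old cells (-1.12 ± 0.28, adjusted p = 0.018, -1.19 with slide as a block, -1.05 on slide 2). Its other kept probe gave -0.43, and the call was lost without Old 2 (adjusted p = 0.0554), without Geriatric 3 (0.165) and with the mean of both probes (-0.78, adjusted p = 0.209). Adamts5 had levels of 3.49, 3.86 and 4.0 on Young, 3.87, 3.69 and 3.78 on Old and 4.48 and 4.49 on Geriatric arrays, with 4.01, 4.11 and 4.55 on SAMP8 and 4.71, 4.31 and 4.62 on SAMR1 arrays. Young and Old arrays thus lay at or below 4.0 and the other 8 above it, the lowest of these at 4.01. Its changes were 0.71 ± 0.23 against Young (adjusted p = 0.112) and 0.71 ± 0.23 against Old (adjusted p = 0.0504), while its other kept probe gave 1.62 and 0.93 and passed in both.

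Adamts15 had levels of -0.86, 0.40 and 0.18 on Young, -1.39, -2.18 and -0.83 on Old and 0.47 and -0.18 on Geriatric arrays, with the Old arrays lowest apart from Young 1, which lay inside their range. It was 3.06-fold higher in Geriatric than in Old cells (1.61 ± 0.44, adjusted p = 0.0272, 1.40 with slide as a block, 1.25 on slide 2). The call was lost without any one of Old 1, Old 2, Geriatric 1 or Geriatric 3, at adjusted p of 0.0604, 0.0836, 0.158 and 0.0709. Adamts1, which also cleaves versican, had means of 0.33 ± 0.37 in Young, 0.17 ± 0.50 in Old and 0.76 ± 0.04 in Geriatric cells, against 1.84 ± 0.45 in SAMP8 and 1.87 ± 0.08 in SAMR1 cells, and passed in no comparison. Adamts9 had group means between 0.96 and 1.14.

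Adamts8 was the only one of the 69 genes to pass in SAMP8 against SAMR1 cells. Its probe lies at chr9:30751050-30751109 on the plus strand of mm9, and the first 30 bases of it and of its second kept probe, at chr9:30770384-30770443, are shown because the 2 probes differ in size of change.
Adamts8 probe: cagaagactcccgcaaagtgccaccaccct
Adamts8 second probe: acccatttcaagtatttatgcaaatatgtc
The levels were 1.43, 1.84 and 1.58 on SAMP8 and 2.77, 2.92 and 2.74 on SAMR1 arrays, which did not overlap, and 1.90 to 2.56 on the C57BL/6 arrays. Adamts8 was at 0.44 of the SAMR1 level in SAMP8 cells (log2 change -1.19 ± 0.22, adjusted p = 0.0456), and the second probe gave -0.71 and did not pass. The change was -1.19 with slide as a block (adjusted p = 0.054) and -0.91 and -1.42 within slides 1 and 2. It lay close to the threshold: leaving out any 1 array other than Young 1 and Old 3 ended the call, at adjusted p between 0.0551 and 0.186 and changes between -1.30 and -1.10. Endothelial and Schwann cell markers also lay lower in SAMP8 cells, although none passed the test. The median change was -0.912 over the 8 endothelial markers, all 8 of them negative, and -1.522 over the 5 Schwann cell markers, 4 of them negative. The mean of the Schwann cell markers was -1.31 to 0.71 on SAMP8 and 1.04 to 1.58 on SAMR1 arrays. Muscle fibre (-0.433), pericyte and smooth muscle (-0.424) and neutrophil markers (-0.130) had smaller negative medians. Mesenchymal and fibroblast markers (0.236) and leukocyte markers (0.213, 7 of 9 positive) lay the other way. The part of these cell types in the Adamts8 change was not tested. Adamts4 lay the other way in the strains, with 3.25, 3.16 and 3.36 on SAMP8 and 2.11, 2.59 and 1.96 on SAMR1 arrays, which did not overlap, but its change of 1.04 ± 0.25 had an adjusted p of 0.158 and its second probe gave -0.14.

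**Figure D3:**
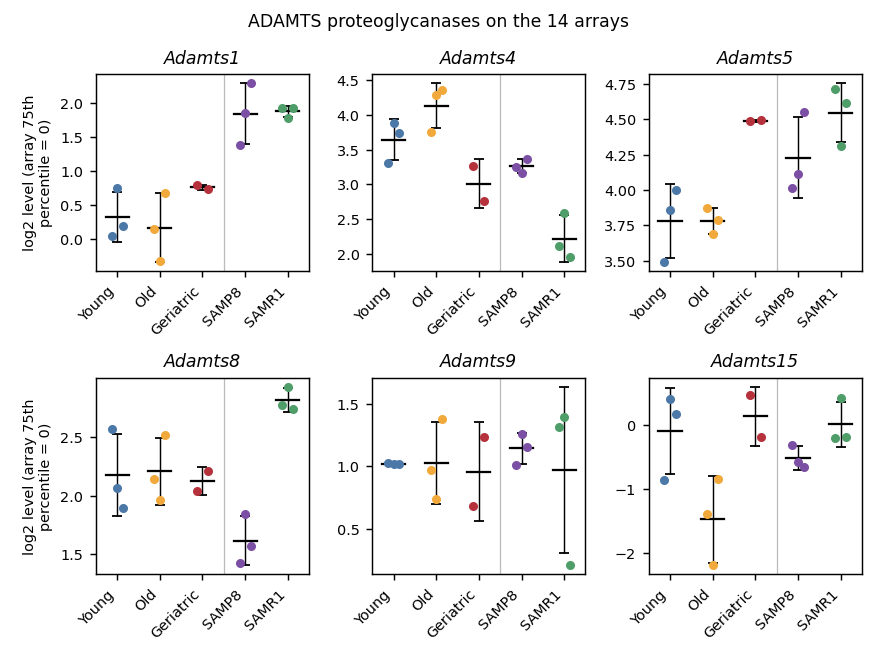
Levels of 6 ADAMTS proteoglycanases on each array (points; log2 relative to the array's 75th percentile), with the mean and SD of each group as bars; each panel has its own axis. Adamts8 separates SAMP8 from SAMR1, Adamts4 is higher on SAMP8 than on SAMR1 arrays, and Adamts15 is lowest in Old cells.

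None of the 3 procollagen N-proteinases (Adamts2, Adamts3 and Adamts14), which trim fibrillar procollagens, passed in any comparison, although a second probe of Adamts14 passed in Geriatric against Old cells (1.24). Adamts2 had means of 0.30 ± 0.16 in Young, 0.18 ± 0.94 in Old and 0.31 ± 0.63 in Geriatric cells, and 2.26 ± 0.50 in SAMP8 and 1.51 ± 0.32 in SAMR1 cells. Of the other ADAMTS genes, 8 of 9 were tested and none passed by its main probe. Adamts10, a protease of the microfibril, had group means between 2.01 and 2.53. Adamts17, another microfibril-associated member, lay in 3 descending steps without overlap, at -0.87, -0.92 and -1.16 on Young, -2.25, -1.88 and -1.93 on Old and -3.43 on the Geriatric array that measured it, its spot on the other being an outlier that was left out of the fit. Its Geriatric versus Young change was -2.44 ± 0.80 (adjusted p = 0.121). It passed in Geriatric against Young and against Old cells with the mean of its probes and with the C57BL/6 arrays alone, and against Young cells without SAMP8 1. Its other kept probe, detected on neither Geriatric array, was lower against Old cells and passed there. Over all genes, 0.335% lay in 3 descending and 0.663% in 3 ascending steps without overlap, and among the 69 genes Adamts17 was the 1 with descending and Timp3 and Adam22 the 2 with ascending steps.

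Of the 7 somatic ADAMs with an active protease domain, Adam9 alone passed by its main probe. Adam9, a widely expressed sheddase, had levels of -1.95, -2.12 and -2.53 on Young, -2.87, -3.17 and -2.36 on Old and -1.87 and -1.93 on Geriatric arrays, and -2.51, -2.63 and -2.16 on SAMP8 and -1.59, -1.42 and -1.64 on SAMR1 arrays. Geriatric arrays lay above all Old arrays, and SAMP8 arrays below all SAMR1 arrays. It was 1.86-fold higher in Geriatric than in Old cells (0.90 ± 0.27, adjusted p = 0.0366, 0.80 with slide as a block, 0.71 on slide 2). This call was lost under 13 of 30 alternatives. Among them were normexp background correction (0.47, adjusted p = 0.103), the replicate block (0.0856), a mean-variance trend (0.064) and the C57BL/6 arrays alone (0.0867). Leaving out Old 1, Old 2, Geriatric 1, Geriatric 3, SAMR1 1 or SAMR1 3 also ended it (adjusted p between 0.0509 and 0.149). In SAMP8 against SAMR1 the Adam9 change was -0.88 ± 0.24 (adjusted p = 0.223), or -0.98 with slide as a block. Adam12 and Adam19, the meltrins known from muscle development and cell fusion, had group means between -1.81 and -0.62 and between -0.60 and -0.19. One of the other 2 kept probes of Adam12, detected on 1 of 2 Geriatric arrays, gave -3.18 in Geriatric against Young and -2.99 in Geriatric against Old cells and passed in both, while the other gave -1.09 and 0.11 and did not pass. Adam15 had means of 1.0 ± 0.10 in Young, 1.51 ± 0.28 in Old and 1.33 ± 0.34 in Geriatric cells, and 3.1 ± 0.50 in SAMP8 and 2.80 ± 0.10 in SAMR1 cells, so that the SAMP8 and SAMR1 arrays lay above every C57BL/6 array. Adam8 (group means -3.32 to -2.33) and Adam33 (-0.19 to 1.49) passed in no comparison.

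Adam11, Adam22 and Adam23 lack protease activity and are known from the brain, where Adam22 and Adam23 bind the secreted protein Lgi1 at synapses. Adam22 was the second gene whose arrays formed rising steps. Its main probe lies at chr5:8092341-8092400 and its second kept probe at chr5:8072390-8072449, both on the minus strand of mm9, and the first 30 bases of each are shown because both probes carry the change.
Adam22 probe: tgggaggcaacaaaaagaaaatcagaggga
Adam22 second probe: gttcacttctgaagctaataagacaataga
The levels were -1.95, -0.87 and -1.22 on Young, -0.35, -0.18 and -0.50 on Old and 1.20 and 0.94 on Geriatric arrays, in 3 steps without overlap. On SAMP8 (1.83, 1.98 and 2.04) and SAMR1 arrays (1.47, 2.00 and 1.66) they lay above all of these. Adam22 was 5.34-fold higher in Geriatric than in Young cells (2.42 ± 0.29, adjusted p = 0.0014), where the second probe gave 2.87 and also passed, and 2.66-fold higher in Geriatric than in Old cells (1.41 ± 0.29, adjusted p = 0.00788), where the second probe gave 1.26 and did not pass. In Old against Young cells its change of 1.0 ± 0.26 had an adjusted p of 0.0883. With slide as a block the changes were 2.27 against Young and 1.34 against Old, and on slide 2 they were 1.94 and 1.49. The call against Old cells was lost without Geriatric 1 (1.28, adjusted p = 0.0575), and that against Young cells when only those 2 groups were fitted (adjusted p = 0.0605).

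The main probe of Adam23 was detected on 1 of 2 Geriatric arrays. It had levels of -3.22, -5.40 and -3.72 on Young, -0.62, -1.79 and -3.03 on Old and -4.64 and -6.23 on Geriatric arrays. It was lower in Geriatric than in Old cells by its main probe (-3.62 ± 0.94, adjusted p = 0.0212), but its other 2 kept probes gave 0.05 and -1.76 and did not pass, so that the 3 probes disagree. The change was -3.18 with slide as a block, -3.61 on slide 2, -2.19 after normexp background correction and -1.89 with the authors' deposited values, and the call was lost without Old 1 (adjusted p = 0.0702), Old 2 (0.053) or Geriatric 3 (0.178) and with the mean of the probes (-1.78, adjusted p = 0.0927). Adam11 had group means between 0.96 and 1.35.

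The remaining ADAMs are known mainly from testis and epididymis, where several act in sperm maturation and fertilisation. Of the 19 tested genes, none was higher and 4 were lower in Geriatric than in Old cells, 0 were higher and 1 lower in Geriatric than in Young cells, and none passed in the other 2 comparisons. Over all genes 14.4% were lower in Geriatric than in Old and 2.61% lower in Geriatric than in Young cells. A second probe of Adam32, detected on neither Geriatric array, was also lower against Old cells and passed. The median change of the 19 was -0.686 in Geriatric against Old cells and -0.622 in Geriatric against Young cells. Under quantile normalization these medians were -0.32 and -0.466, beside 0.027 and -0.042 over all genes, and with the authors' deposited values -0.244 and -0.31; both of these scalings also gave 1 of the 19 higher in Geriatric than in Old cells. Of the 19, 3 had a positive change against Old cells and 2 against Young cells.

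Adam24, testase 1, a protease of the sperm surface, was the 1 gene of these that passed in both Geriatric comparisons. Its single probe lies at chr8:41767082-41767141 on the plus strand of mm9.
Adam24 probe: ctgaaccctcatatgagacagttaaaccac
The levels were -2.67, -0.88 and -1.77 on Young, 0.66, 0.12 and 0.08 on Old and -6.62 and -5.22 on Geriatric arrays, with -7.79, -7.31 and -7.53 on SAMP8 and -7.30, -8.17 and -7.53 on SAMR1 arrays. It was detected on all 6 Young and Old arrays, on 1 of 2 Geriatric arrays and on no SAMP8 or SAMR1 array. Adam24 fell in Geriatric against Old cells (-6.21 ± 0.52, adjusted p = 7.1e-05) and in Geriatric against Young cells (-4.15 ± 0.52, adjusted p = 0.00163), while its Old versus Young change was 2.06 ± 0.46 (adjusted p = 0.0555). With slide as a block these changes were -6.25, -4.23 and 2.02, and on slide 2 they were -6.29, -5.04 and 1.25. The authors' deposited values gave -3.79, -1.99 and 1.80, and normexp background correction gave -4.0 and -2.22 for the falls against Old and Young cells. The Old versus Young change passed without Young 2 (adjusted p = 0.0331) and without either Geriatric array (0.0447). The Geriatric versus Young call was lost when only those 2 groups were fitted (adjusted p = 0.0648).

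Adam7, Adam3 and Adam26a were the other 3 that fell. Adam7, a protein of the epididymis, had levels of -8.22 and -8.17 on Geriatric and -2.78, -4.43 and -5.24 on Old arrays. It was detected on no Geriatric, SAMP8 or SAMR1 array and was lower in Geriatric than in Old cells (adjusted p = 0.00406). The bound on the size, set as for Mmp12, was 9.36-fold. It is no strict lower limit, since Mmp12 was undetected on the Geriatric arrays at signals above the one used for it. Adam3, cyritestin, had -4.30 and -4.98 on Geriatric and -2.42, -2.68 and -2.74 on Old arrays (-2.03 ± 0.45, adjusted p = 0.0104), and its second probe, detected on 2 of 3 Old and no Geriatric arrays, was also lower and passed (-2.94 with the mean of both probes). Adam26a, testase 3, had -3.60 and -4.10 on Geriatric and -1.77, -2.22 and -2.51 on Old arrays (-1.68 ± 0.40, adjusted p = 0.015), and its second probe gave -2.76 and also passed. All 3 were lower on every Geriatric than on every Old array, as were 35.4% of all genes. Their fitted changes were -3.86, -2.06 and -1.66 with slide as a block and -4.19, -2.06 and -1.71 on slide 2. With the authors' deposited values they were smaller, -0.81, -0.81 and -0.87, and the Adam7 and Adam3 changes were -1.37 and -1.23 after normexp background correction, so the Adam7 bound too holds on the processed-signal scale only. Without Geriatric 3 the calls of Adam3 (adjusted p = 0.107) and Adam26a (0.129) were lost, and without Old 1 that of Adam26a (0.0524). Against Young cells Adam26a had a change of -1.59 ± 0.40 with an adjusted p of 0.0507, which was 0.0149 without Young 1 and 0.0432 without SAMP8 3.

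**Figure D4:**
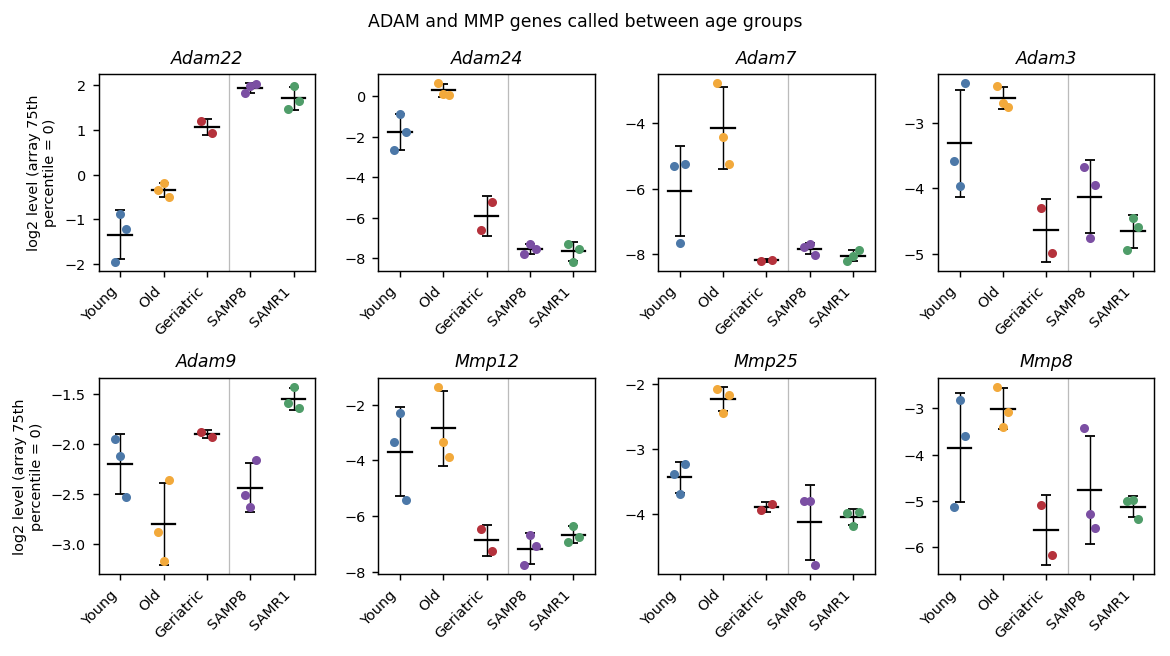
Levels of 8 ADAM and MMP genes that passed between age groups on each array (points; log2 relative to the array's 75th percentile), with the mean and SD of each group as bars; each panel has its own axis. Adam22 lies in 3 ascending steps, and Adam24, Adam7 and Mmp12 are at their lowest on Geriatric, SAMP8 and SAMR1 arrays, near the detection limit.

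8 of the 69 genes separated the 6 Young and Old arrays from the other 8, which is also the split by sex-linked transcripts. Timp3, Adam22 and Adamts5 were higher on all Geriatric, SAMP8 and SAMR1 arrays than on all Young and Old arrays, where 2.63% of all genes were. Adam24, Adam26a, Adam7, Mmp12 and Mmp25 were lower on all of them, where 6.76% of all genes were. Among the 69 genes these are 4.35% and 7.25%. Age, strain and sex-linked transcripts cannot be told apart in this split.

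The Geriatric versus Young change differed from the SAMP8 versus SAMR1 change for 3 of the 69 genes, where 1.73% of all genes passed, 2 of them in the positive (0.538% of all genes) and 1 in the negative direction (1.19%). The difference was 2.93 ± 0.33 for Timp3 (adjusted p = 0.00121), 2.18 ± 0.39 for Adam22 (adjusted p = 0.0191) and -4.27 ± 0.69 for Adam24 (adjusted p = 0.0106). The age and strain changes were 2.54 and -0.39 for Timp3, and 2.42 and 0.24 for Adam22 by its main probe. By the second Adam22 probe the strain change was negative, so the 2 probes disagree in its direction. Adam24 was undetected on all 6 SAMP8 and SAMR1 arrays, so its strain change has no measured value and its difference restates the age change. Adamts4 had a difference of -1.67 ± 0.38 with an adjusted p of 0.0512, which passed without Young 1 (0.0404) or Old 1 (0.0429). The Adam22 difference was lost without Geriatric 1 (2.04, adjusted p = 0.0806), Geriatric 3 (2.31, 0.0581) or SAMR1 2 (2.03, 0.0532), and the second Adam22 probe gave 4.02 and did not pass (3.1 with the mean of both probes, which passed).

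**Figure D5:**
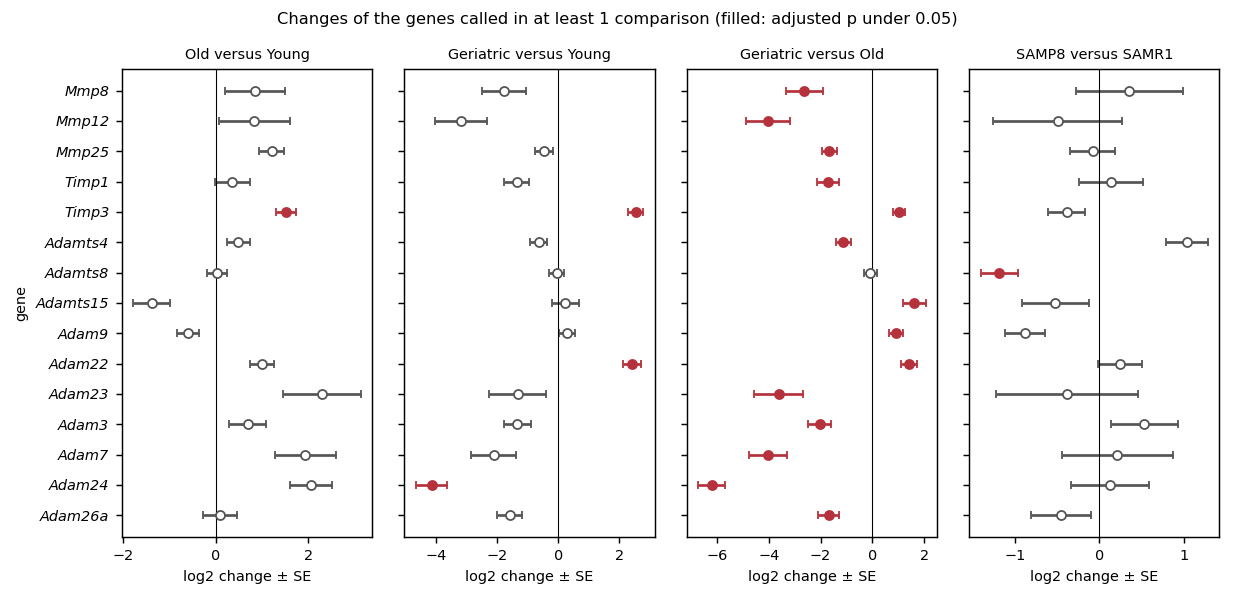
Log2 changes with SE of the 15 genes that passed in at least 1 of the 3 comparisons of ages or the 1 of strains (filled points passed at adjusted p under 0.05; each panel has its own axis). Timp3 passes in all 3 age comparisons, and only Adamts8 passes in the strain comparison.

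Of 37 tested matrix substrates, 4 were higher and none lower in Geriatric than in Young cells (1.58% and 2.61% of all genes were), and 5 were higher and none lower in Geriatric than in Old cells (6 and 2 after normexp background correction), where 5.52% and 14.4% of all genes were. Nid1 and Nid2, the nidogens that link laminin to type IV collagen, were 2.23 ± 0.29 and 2.17 ± 0.40 higher on the log2 scale in Geriatric than in Young cells (adjusted p = 0.0019 and 0.012). Col18a1, a basement membrane collagen, and Vtn, vitronectin, were 1.37 and 1.12 higher (adjusted p = 0.0266 and 0.0205). Against Old cells Nid1, Nid2, Col18a1, Lamc1 and Fbn1 were higher, by 0.99 to 1.72. Fn1, fibronectin, was the 1 substrate lower in Old than in Young cells (-1.71 ± 0.30, adjusted p = 0.022), and none of the 37 passed in SAMP8 against SAMR1 cells. Of 31 tested genes of the plasminogen and cysteine protease systems and of other inhibitors and processing enzymes, 3 passed, all in Geriatric against Old cells: Adamtsl1, an ADAMTS-like protein without a protease domain, was higher (1.84), and Plg, plasminogen (-3.57), and A2m, a broad protease inhibitor (-1.47), were lower. Under quantile normalization and with the authors' deposited values none of the 31 was lower in Geriatric than in Old cells.

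RefSeq promoter windows of build GRCm38.p6, from 250 bases before to 50 after a gene's start, were given for 46 of the 76 genes. A gene with several starts counts as holding a motif where any of its windows does. The AP-1 motif TGAGTCA, searched on both strands, was in the windows of 10 of these 46 genes (21.74%) and of 5.95% of 27025 genes. The 10 were Mmp1a, Mmp1b, Mmp3, Mmp7, Mmp10, Mmp12, Mmp13, Adam1b, Adam19 and Adam29. The matching windows of all the MMPs among them lie close together, at chr9:7272264-7692139, and each also holds TATAAA. The windows of Mmp8 and Mmp20 lie there too and hold TATAAA. Most AP-1 and TATAAA matches thus come from 1 group of neighbouring genes, and the shares do not describe the 46 genes as a whole. TATAAA was in 30.43% of the 46 and 15.67% of all, and GGGCGG, a GC box, in 45.65% and 38.20%. None of the 3 motifs contains another. Mmp12 has 2 starts in this table, and the window of the other holds none of the 3 motifs. The 250 bases before the start with the AP-1 match (in capitals) are shown, at chr9:7347124-7347373 on the plus strand.
Mmp12: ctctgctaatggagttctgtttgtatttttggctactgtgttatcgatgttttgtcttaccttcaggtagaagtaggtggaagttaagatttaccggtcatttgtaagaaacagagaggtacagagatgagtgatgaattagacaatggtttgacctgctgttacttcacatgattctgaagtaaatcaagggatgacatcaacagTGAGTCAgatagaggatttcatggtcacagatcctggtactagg
Those of Timp3 (chr10:86300162-86300411, plus strand) and Adam22 (chr5:8368161-8368410, minus strand) are shown because the arrays of both genes formed ascending steps with age, with the GC box in capitals as its reverse complement in Timp3.
Timp3: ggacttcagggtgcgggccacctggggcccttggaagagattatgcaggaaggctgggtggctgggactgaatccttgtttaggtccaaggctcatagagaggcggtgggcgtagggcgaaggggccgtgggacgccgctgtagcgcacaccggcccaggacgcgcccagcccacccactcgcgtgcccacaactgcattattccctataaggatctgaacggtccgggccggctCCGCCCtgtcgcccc
Adam22: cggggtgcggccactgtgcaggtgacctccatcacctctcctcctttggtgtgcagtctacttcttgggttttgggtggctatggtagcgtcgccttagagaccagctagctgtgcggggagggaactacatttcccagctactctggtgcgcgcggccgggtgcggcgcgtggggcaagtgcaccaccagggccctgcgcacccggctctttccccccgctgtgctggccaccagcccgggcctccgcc
The window of Adam22 holds none of the 3 motifs. The windows of Timp3 and Adam22 hold 24 and 19 CpG dinucleotides, against a median of 7 over the 46 genes and 8 over all genes. Of the 10 genes with an AP-1 match 7 were tested for expression, and Mmp12 was the 1 that passed in a comparison.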

How the data were processed

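Each sample was hybridised to one single-colour Agilent array. Per the file headers, the scanner output that the authors deposited came from version 10.7.3.1 of Agilent's Feature Extraction and holds background-subtracted spot intensities and a mark for spots well above background. They also deposited a table of log2 values, whose column medians are all 7.80 and which correlate with the log2 mean signal of their arrays at 0.997 or above (Pearson's r, across probes of one array); the sources used here do not give the method behind it. Probe coordinates are those of the files (mm9), and the exon or UTR position of a probe was not determined here.

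From the intensities, log2 of the processed signal minus the 75th percentile of each array was computed, with outlier spots left out (515 missing values among the tested genes). Of 55681 probes, 49929 were kept, those marked as above background on 2 or more arrays of any one group, and the kept probe with the highest mean stood for its gene, giving 32870 genes, 19863 of them with symbols. Of the genes described, 26 had several probes, 23 of them several kept ones. All 105 probe names are current RefSeq symbols, 100 matched by accession and 5 by symbol. One limma model (limma 3.58.1 in R 4.3.3; prior 2.362 degrees of freedom) with a term for each of the 5 groups was fitted to all 14 arrays, and p-values were adjusted over all genes by Benjamini and Hochberg. The script was tested on simulated data. The number of arrays limits the precision, and p-values measure the spread between samples. Geriatric 2 was not analysed here.

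Genes named are those that passed in any of the 5 contrasts, 28 genes listed by name, and up to 3 per gene list with the smallest p; a few others are named to account for counts. The genes and lists were chosen with earlier results of these data known. The alternatives were slide or replicate number as a block, single slides, other normalizations, filters, probe rules and fits, the C57BL/6 arrays alone (chosen after seeing the data), and leaving out each array.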

Additional observations from a re-analysis of the deposited data

Results flagged for a closer look

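For 3 genes the Geriatric versus Young change differed from the SAMP8 versus SAMR1 change in the test of that difference in limma. The difference, in log2, was 2.93 for Timp3 (adjusted p = 0.00121), with 2.92 with slide as a block and 2.88 on slide 2. It was -4.27 for Adam24 (adjusted p = 0.0106), with -4.31 with slide as a block, -5.55 on slide 2, where both Geriatric arrays lie, and -2.02 with the authors' deposited values. Adam24 was undetected on all 6 SAMP8 and SAMR1 arrays and on 1 of 2 Geriatric arrays, so the strain side of this difference has no measured value. It was 2.18 for Adam22 (adjusted p = 0.0191), with 2.11 with slide as a block and 2.01 on slide 2. Geriatric and Young arrays also differ in their sex-linked transcripts, and the part of that difference in these values was not tested. No group has more than 3 arrays, so single arrays were not searched for outlying values.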

How the results depend on the processing

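Over 37 named changes and 1098 values under alternatives, 966 kept their direction and their side of the threshold, 94 lost and 38 gained a call, and none reversed. The 37 were chosen from the main limma fit, by an adjusted p under 0.05 or an unadjusted p under 0.01. Reversals were therefore unlikely from the start, and their absence says nothing of the changes not chosen. The counts below are of the 69 genes passing in limma. In Geriatric against Old cells 14 passed, but 3 on slide 2 alone, 8 with only the groups compared, and 4 to 18 on leaving out 1 array, with 4 without Geriatric 3 and 9 without Old 1 or Old 2. In Geriatric against Young cells 3 passed, but 0 on slide 2 alone (8 at an unadjusted p under 0.05), 1 with only the groups compared, 6 with the mean of the kept probes, 5 with every probe as a row or a mean-variance trend, and 3 to 5 on leaving out 1 array, with 5 without Old 1. In Old against Young cells 1 passed, but 0 on slide 1 alone (14 unadjusted), on slide 2 alone (7), with only the groups compared (9) and with the C57BL/6 arrays alone (10). It was 2 with no filter on dim probes, with detection on all arrays of a group or on all 14, with the mean of the kept probes and with symbols only, and 3 with slide as a block, normexp or the authors' deposited values. On leaving out 1 array it was 1 to 2, with 2 without Young 2, Old 3, Geriatric 1, Geriatric 3 or SAMP8 3. In SAMP8 against SAMR1 cells 1 passed, but 2 with a mean-variance trend and 0 with slide as a block (4 unadjusted), on slide 1 (8) or slide 2 alone (2), with the replicate block with or without slide (3 each), with no filter (3), the mean of the kept probes (3), every probe as a row (4) or only the groups compared (4). On leaving out 1 array it was 0 to 1, with 0 (3 to 11 unadjusted) without any 1 array but Young 1 or Old 3. The difference of the age and strain changes passed for 3 genes, but for 0 on slide 2 alone (6 unadjusted), for 5 with the authors' deposited values or a mean-variance trend, and for 2 to 4 on leaving out 1 array. Slide 1 alone holds no Geriatric array. These settings change the arrays, rows or spread that enter the fit; other causes were not tested.

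Arrays with the same replicate number were not more alike than others. Same-numbered arrays of different groups had correlations of -0.255 to 0.192 (median -0.026, 26 pairs), against -0.191 to 0.196 (median 0.048, 52 pairs) for arrays with different numbers. The highest same-numbered pair (Young 2 and SAMR1 2) shared a slide and the lowest (Young 3 and Old 3) did not. Slide thus enters these values, and they cannot decide whether replicate numbers pair the samples. With the replicate block 12 genes passed in Geriatric against Old cells, 3 against Young, 1 in Old against Young and 0 in SAMP8 against SAMR1 cells, and 3 for the difference. Over all genes, calls varied more. They were 471 in Old against Young cells, with 0 (4900 unadjusted, slide 1 alone) to 1028 (normexp) under other settings and 83 without Old 1. They were 1377 in Geriatric against Young cells, with 2 (slide 2 alone) to 1932 (mean-variance trend) and 414 without Geriatric 3. They were 6556 in Geriatric against Old cells, with 1552 (slide 2 alone) to 9347 (normexp) and 1988 without Geriatric 3. They were 149 in SAMP8 against SAMR1 cells, with 0 (4384 unadjusted, slide 1 alone) to 264 (normexp) and 56 without SAMR1 2. They were 568 for the difference, with 0 (2440 unadjusted, slide 2 alone) to 892 (normexp) and 268 without Geriatric 3. Genes near background, such as Mmp8, Mmp12, Adam7 and Adam24, had the least certain sizes of change.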
